A study of Mus musculus with 33 samples.

Results

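The miR-146 family of the mouse has 2 mature guide strands, miR-146a and miR-146b, and both were followed here in whole lung after carbon black. They were taken by name from the scanner files, as every probe listed for mmu-miR-146a and mmu-miR-146b, which gave 2 of the 650 miRNAs and 4 of the 1857 probes on the array. The animals were female C57BL/6 mice, an inbred laboratory strain, given vehicle or 0.162 mg of Printex 90, a carbon black of nanosized particles, by instillation into the windpipe. Vehicle, which the exposed mice also received with the particles, was saline with added cell-free lavage fluid. Lungs were collected at day 1, 3 or 28, and RNA of each mouse was put on 1 array. Control groups held 6, 6 and 6 arrays and exposed groups 6, 4 and 5 arrays at days 1, 3 and 28, and the series design speaks of individual mice. A single dose and females only were studied.

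MicroRNAs are short RNAs that pair through their seed, the bases next to the 5′ end, with messenger RNAs and lower their output. Transcription of the miR-146 genes is raised by NF-kB, the factor that Toll-like receptors and the interleukin-1 receptor switch on in inflammation. Traf6 and Irak1, signalling proteins downstream of those receptors, are well-known targets of miR-146. The family is therefore known as a negative feedback on this pathway in macrophages, other immune cells and airway epithelium. No messenger RNA was measured on these arrays.

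The mature sequences, from RefSeq on GRCm38.p6, are shown first because both miRNAs share 1 seed and differ near the 3′ end, which bears on what a probe can tell apart. The array's names give no arm and were matched to the 5p arms. Capitals mark the seed, bases 2 to 8 counted from the 5′ end.
miR-146a-5p: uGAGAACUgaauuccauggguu
miR-146b-5p: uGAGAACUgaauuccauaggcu
The seed GAGAACU was held by these 2 of the 1738 mature mouse sequences in the table. The strands are 22 bases long and 20 of the 22 bases are identical. Going from miR-146a to miR-146b, the 2 differences are G18A and U21C, with positions counted from the 5′ end. In the next pair of lines the capitals mark the bases that differ.
miR-146a-5p: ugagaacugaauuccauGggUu
miR-146b-5p: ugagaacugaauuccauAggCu

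The genes lie on different chromosomes. Mir146 gives miR-146a from the minus strand of chromosome 11, with the mature strand at chr11:43374435-43374456 inside a hairpin of 65 bases at chr11:43374397-43374461. Mir146b gives miR-146b from the plus strand of chromosome 19, with the mature strand at chr19:46342790-46342811 inside a hairpin of 109 bases at chr19:46342762-46342870. The hairpins are given with the mature strand in capitals, to show that the precursors around the near-identical strands are unlike.
Mir146: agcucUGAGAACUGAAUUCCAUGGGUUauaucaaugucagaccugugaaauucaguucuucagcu
Mir146b: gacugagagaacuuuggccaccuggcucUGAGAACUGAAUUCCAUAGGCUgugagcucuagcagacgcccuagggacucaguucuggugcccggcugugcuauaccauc
The array also carried 4 probes for miR-146b*, the passenger strand of the same hairpin, and they were above background on 0 of 33 arrays.

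Each member had 2 probes of 10 spots each. The brighter miR-146a probe (A_54_P2317) was above background on 33 of 33 arrays, with a processed signal of 110 to 1043 units and a median coefficient of variation between its spots of 5.71%. The brighter miR-146b probe (A_54_P2006) was also above background on 33 of 33 arrays, at 16.1 to 480.2 units and 7.48%. The dimmer miR-146a probe (A_54_P2318) was above background on 31 of 33 arrays. The dimmer miR-146b probe (A_54_P2005) was so on 3 of 33, and all 3 were exposed lungs of day 28. No probe was saturated. Levels below are those of the brighter probe, as log2 signal after each array was scaled to a common 75th percentile, and are compared between arrays only, never between the probes.

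Before the results, some facts of the arrays bear on all of them. The 75th percentile before scaling ran from 187 to 1211 units, and an array had 99 to 193 of the 611 mouse miRNAs above background. Neither member's scaled level followed this brightness over the 33 arrays (Pearson r = -0.014 for miR-146a and 0.025 for miR-146b, permutation p = 0.938 and 0.889, adjusted over 4 relations 0.938 for both; Spearman rho = -0.028 and -0.10, p = 0.878 and 0.562, adjusted 0.878 and 0.749). Without the 2 arrays farthest in brightness r was 0.098 and -0.039. Brightness itself differed with exposure, in opposite directions by day and with overlapping ranges. The median 75th percentile was 481 units in exposed and 985 in control arrays at day 28. At day 1 it was 666 in exposed and 365 in control arrays, and at day 3 the medians lay close together. The r over all groups mixes these shifts, so it cannot speak for a single day. The relation within each day was not tested. On the first principal component over 94 miRNAs above background on all arrays, which held 32.7% of the variance, the 4 arrays of slide 1 lay at -5.91 to -2.73 and the 29 others at -1.66 to 1.99. Slide 1 holds control day 1 replicate 1, control day 3 replicate 2, exposed day 1 replicate 3 and exposed day 3 replicate 4, so results for days 1 and 3 are given with and without it. On every slide the controls lie in array row 1 and the exposed arrays in row 2, so position on the slide and exposure cannot be told apart. Lung identity was checked on markers: miR-126-3p of endothelium and the 5 epithelial miRNAs of the miR-200 family were above background on 33 of 33 arrays and miR-126-5p, also of endothelium, on 23. Of miRNAs of other tissues, miR-124 of brain was above background on 0, but miR-122 of liver was on 21, and miR-1, miR-133b and miR-133a of heart and skeletal muscle were on 31, 16 and 10.

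In vehicle lungs the levels of both members differed little between day 1, day 3 and day 28. The level of miR-146a averaged 8.25 ± 0.27 (SD, n = 6) at day 1, 8.31 ± 0.12 (n = 6) at day 3 and 8.20 ± 0.13 (n = 6) at day 28. That of miR-146b averaged 5.92 ± 0.16 (n = 6), 5.79 ± 0.22 (n = 6) and 5.78 ± 0.13 (n = 6). Group means of control days therefore lay within 0.11 for miR-146a and 0.14 for miR-146b on the log2 scale, and none of the 6 differences between days passed the test (limma, Benjamini-Hochberg adjusted p from 0.777 to 0.972). Between control days 28 and 1 the same fit called 12 of the 172 miRNAs tested, or 6.98%, and between days 28 and 3 it called 0.581%, which is 1 miRNA, miR-542-5p. Between days 3 and 1 it called 0%. Before adjustment, at 0.05, 2.33% of miRNAs were higher and 22.1% lower between days 28 and 1, 1.16% and 9.3% between days 28 and 3, and 0.581% and 4.65% between days 3 and 1. The direction of these small control differences turned with the scaling in several settings.

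At day 28 after carbon black miR-146b was the member with the larger difference from vehicle lungs, although it did not pass the test over all miRNAs. In whole lung a difference in the number of cells of a type and one in RNA per cell cannot be told apart, here or below. Its levels in the 5 exposed lungs were 8.11 (replicate 8), 7.97 (replicate 23), 6.96 (replicate 30), 6.06 (replicate 20) and 5.49 (replicate 12). In the 6 controls the lowest was 5.59, the median 5.77 and the highest 5.97. Thus 4 of the 5 exposed lungs lay above every control and the other, replicate 12, below every control, so the groups overlapped. The exposed mean was 6.92 ± 1.15 (SD, n = 5), against 5.78 ± 0.13 (n = 6) in controls. The difference of 1.14 ± 0.34 (SE; 95% interval 0.45 to 1.83) is 2.20-fold and stayed above 0 in all 17 other settings tried (0.53 to 1.35). The fit shares 1 spread over all 6 groups, with a residual SD of 0.58. Its SE and interval therefore do not carry the wider spread of the exposed lungs of day 28. The test over all miRNAs was limma (Benjamini-Hochberg adjusted p = 0.166). By an exact permutation test over the arrays, two-sided, p was 0.0649 (adjusted 0.447; the smallest this design allows is 0.00433). At day 28 limma called 0% of the 172 miRNAs, and before adjustment 5.23% were higher and 2.33% lower at 0.05. The exact permutation test called 0 after adjustment as well. With so few arrays it could call any only if many miRNAs had a small p together, so this 0 says little. Exposed and control groups did not overlap for 1.74% of miRNAs at day 28, 0% at day 3 and 0.581% at day 1, and neither member was among them. In the order of limma's p over the 172 miRNAs miR-146b stood at place 2 and miR-146a at place 3. The day 28 difference of miR-146b passed under normexp background correction (1.02, adjusted p = 0.0101), where the median of all miRNAs was 0.28. It also passed without exposed day 28 replicate 12, the exposed lung below every control (1.50, adjusted p = 0.00230). With each array left out in turn the difference was as low as 0.84, and the highest limma adjusted p was 0.728. It was 0.53 with the authors' series table (adjusted p = 0.177) and 0.53 with no scaling (adjusted p = 0.330).

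For miR-146a the difference at day 28 was smaller, and the same 3 exposed lungs were the highest. Its levels in exposed lungs were 9.27 (replicate 23), 9.23 (replicate 8), 8.83 (replicate 30), 8.17 (replicate 20) and 7.92 (replicate 12), against a lowest of 8.03, a median of 8.24 and a highest of 8.36 in the 6 controls. The order of the lungs was that of miR-146b except that the top pair changed places, with 3 of 5 above every control and 1 below. The mean was 8.68 ± 0.61 (SD, n = 5) in exposed lungs and 8.20 ± 0.13 (n = 6) in controls. The difference of 0.48 ± 0.18 (SE; 95% interval 0.11 to 0.86), 1.40-fold, did not pass (limma adjusted p = 0.570; exact permutation p = 0.108, adjusted 0.574). It turned to -0.13 with no scaling, a setting in which the median of all miRNAs lay at -0.65. When only the 2 groups compared were fitted, without the spread of the other groups, the SE was 0.23 (limma adjusted p = 0.384). Without exposed day 28 replicate 12 the difference was 0.67 (adjusted p = 0.0201). With each array left out in turn it was as low as 0.34, and the highest limma adjusted p was 0.950. The median change of all 172 miRNAs at day 28 was -0.034.

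**Figure D1:**
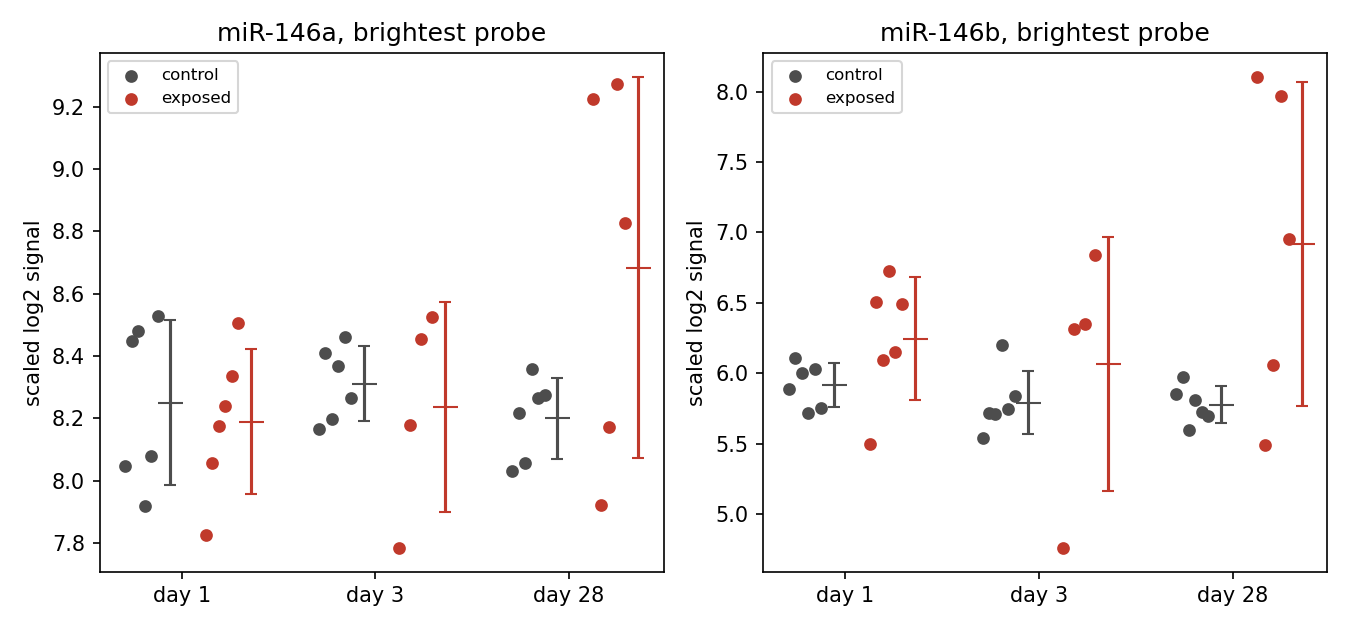
Scaled log2 signal of the brighter probe of miR-146a (left) and miR-146b (right), 1 point per array, by day, with the mean and SD of each group as bars. The vehicle groups are narrow on every day for miR-146b and at days 3 and 28 for miR-146a. For miR-146a at day 1 the vehicle SD was 0.27 and the exposed SD 0.23. Exposed lungs of day 28 reach from 7.92 to 9.27 for miR-146a and from 5.49 to 8.11 for miR-146b.

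The SD of miR-146b was 0.44, 0.90 and 1.15 in the exposed groups and 0.16, 0.22 and 0.13 in the controls at days 1, 3 and 28. The value of 0.90 includes replicate 4 of slide 1 at 4.76, while the other exposed lungs of day 3 lay between 6.32 and 6.84. For miR-146a the SD was 0.23, 0.34 and 0.61 in the exposed groups and 0.27, 0.12 and 0.13 in the controls, so at day 1 it was the controls that spread more. These differences in spread were not tested.

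The dimmer probes are listed for the same miRNAs and gave a second reading. As the members are near-identical, how far each dimmer probe also binds the other member was not tested. For miR-146b the dimmer probe read 5.14 (replicate 8), 5.06 (replicate 23), 3.79 (replicate 30), 2.66 (replicate 20) and 1.88 (replicate 12) in exposed lungs of day 28. It was above background in the first 3 of these, the lungs that were also highest by the brighter probe, and in none of the 18 vehicle lungs. Its means were 3.71 ± 1.44 (SD, n = 5) in exposed lungs and 2.15 ± 0.36 (n = 6) in controls. It was too seldom above background to be tested alone, and where it was not above background, its value is at most a bound. For miR-146a the dimmer probe differed by 0.51 ± 0.44 (SE) at day 28, close to the 0.48 of the brighter one, but did not pass (limma over 309 probes, adjusted p = 0.950). Its means were 5.62 ± 0.74 (SD, n = 5) and 5.11 ± 0.39 (n = 6). At days 1 and 3 it differed by 0.044 ± 0.42 and -0.17 ± 0.47 (adjusted p = 0.961 and 0.996). The probes of miR-146a thus had opposite signs at day 1, both within their errors.

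**Figure D2:**
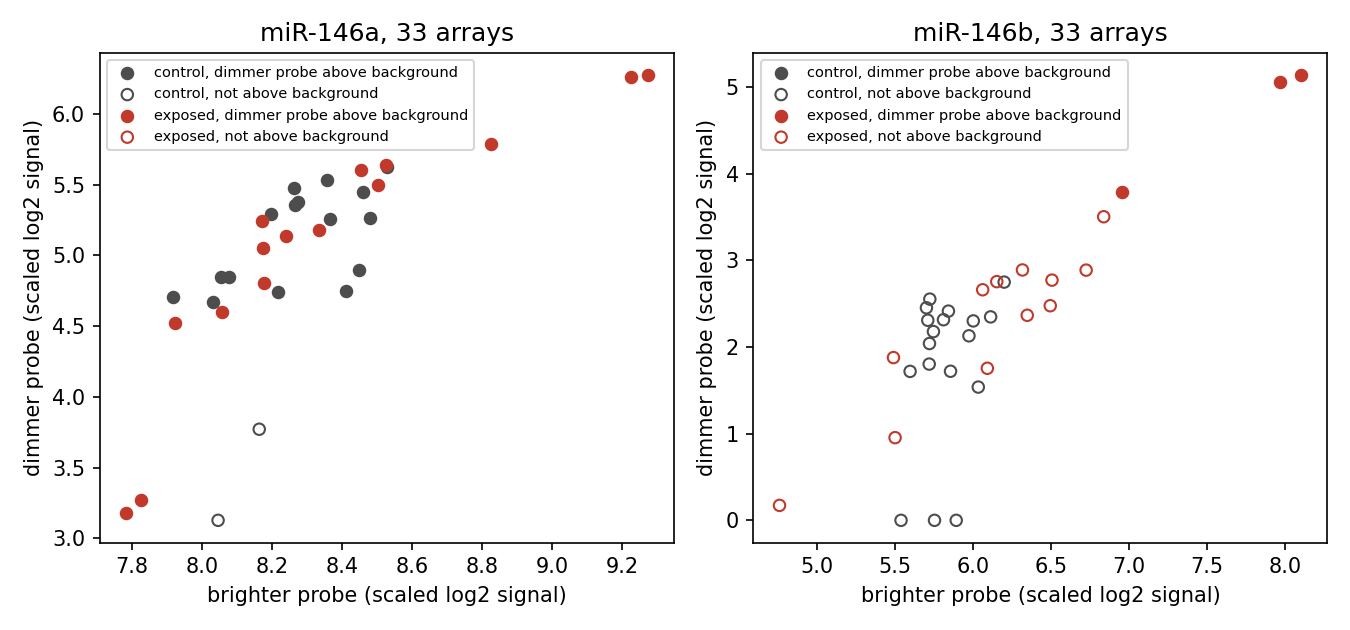
Dimmer against brighter probe of each member on 33 arrays, in scaled log2 signal, with filled points where the dimmer probe was above background. For miR-146b (right) only 3 points are filled, all exposed lungs of day 28, and for miR-146a (left) 31 are.

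At day 1 the exposed lungs had a lowest miR-146b level of 5.50, a median of 6.32 and a highest of 6.72, against 5.72, 5.95 and 6.11 in controls. Of the 6 exposed lungs, 4 lay above every control and 1, replicate 3 of slide 1, below every control. The means were 6.24 ± 0.44 (SD, n = 6) and 5.92 ± 0.16 (n = 6). The difference of 0.33 ± 0.32 (SE; 95% interval -0.33 to 0.98) did not pass (limma adjusted p = 0.632; exact permutation p = 0.119, adjusted 0.614), and it turned to -0.14 under normexp background correction, where the median of all miRNAs was -0.36. Without the arrays of slide 1 it was 0.47 (adjusted p = 0.553). Over all 172 miRNAs limma called 0% at day 1, and before adjustment 5.23% were higher and 4.07% lower at 0.05. The exact permutation test called 0 after adjustment, with a smallest possible p of 0.00216. It too could call any only if several miRNAs had a small p together.

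For miR-146a the day 1 groups lay on top of each other. Exposed lungs had a lowest level of 7.83, a median of 8.21 and a highest of 8.50, against 7.92, 8.26 and 8.53 in controls. The difference was -0.060 ± 0.17 (SE; 95% interval -0.42 to 0.30; limma adjusted p = 0.862), and its direction turned in 3 of the 17 other settings. An effect of the size measured at day 28, 0.48, lies outside this interval.

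At day 3 there were 4 exposed lungs. Their miR-146b levels were 6.84 (replicate 33), 6.35 (replicate 16), 6.32 (replicate 11) and 4.76 (replicate 4), against a lowest of 5.54, a median of 5.73 and a highest of 6.20 in the 6 controls. Again all but 1 exposed lung lay above every control, and the exception, replicate 4 on slide 1, was the lowest of all 33 arrays. The means were 6.06 ± 0.90 (SD, n = 4) and 5.79 ± 0.22 (n = 6). The difference was 0.27 ± 0.36 (SE; 95% interval -0.46 to 1.00; limma adjusted p = 0.996; exact permutation p = 0.495, adjusted 1.0) and without slide 1 it was 0.66 (adjusted p = 0.819). Leaving out exposed replicate 33 alone brought it to 0.015 (adjusted p = 0.993). Limma called 0% of miRNAs at day 3, and before adjustment 1.16% were higher and 0% lower at 0.05. The exact permutation test called 0 after adjustment. Its smallest possible p was 0.00952 here, so it could call any only if many miRNAs had a small p together, and this 0 says little.

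The miR-146a levels of the exposed lungs of day 3 were 8.53 (replicate 33), 8.46 (replicate 16), 8.18 (replicate 11) and 7.78 (replicate 4), in the order of miR-146b. Controls had a lowest of 8.16, a median of 8.32 and a highest of 8.46. The difference was -0.075 ± 0.20 (SE; 95% interval -0.47 to 0.32; limma adjusted p = 0.996), and 0.046 without slide 1 (adjusted p = 0.972).

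Over the mean of the 3 days miR-146b differed by 0.58 ± 0.20 (SE; 95% interval 0.18 to 0.98), 1.49-fold, which did not pass (limma adjusted p = 0.219). This mean passed in the fit with slide as a fixed block (0.63, adjusted p = 0.0345), with slides as random blocks (0.61, adjusted p = 0.0407), with the day of the scan as a block (0.62, adjusted p = 0.0433) and without slide 1 (0.76, adjusted p = 0.0174). It also passed without exposed day 28 replicate 12 (0.70, adjusted p = 0.0153) and without exposed day 3 replicate 4 (0.73, adjusted p = 0.0194). With each array left out in turn it was as low as 0.48, and the highest limma adjusted p was 0.464. It was smaller with the authors' series table (0.24, adjusted p = 0.135) and with normexp (0.35, adjusted p = 0.412), and with no scaling it was 0.57 (adjusted p = 0.986). For miR-146a the mean was 0.12 ± 0.11 (adjusted p = 0.690). The fit called 1 of the 172 miRNAs here, 0.581%, which was miR-689; before adjustment 4.07% were higher and 5.81% lower at 0.05.

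**Figure D3:**
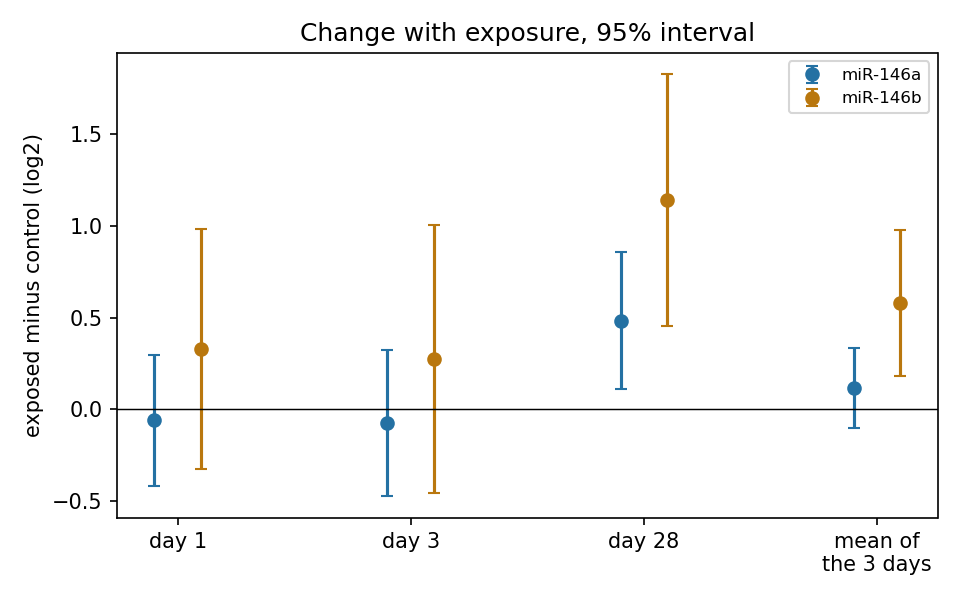
Exposed minus control (log2) for miR-146a and miR-146b at each day and over the mean of the 3 days, with 95% intervals of the fit. The points of miR-146b run 0.33, 0.27 and 1.14 and those of miR-146a -0.060, -0.075 and 0.48.

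The test of whether the change differed between days did not pass for either member. Between days 28 and 1 the change of miR-146a differed by 0.54 ± 0.25 (SE; limma adjusted p = 0.572) and that of miR-146b by 0.81 ± 0.46 (adjusted p = 0.733). Between days 28 and 3 the values were 0.56 ± 0.27 and 0.87 ± 0.49 (adjusted p = 0.999 for both), and between days 3 and 1 they were -0.015 ± 0.26 and -0.053 ± 0.48 (adjusted p = 0.996 for both). The fit called 0% of miRNAs in each of these 3 differences. Before adjustment, at 0.05, it had 4.07% higher and 3.49% lower between days 28 and 1, 1.16% and 0.581% between days 28 and 3, and 1.74% and 0.581% between days 3 and 1.

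Ordered by mean level, the 6 groups ran for miR-146b from control day 28 (5.78) through control day 3 (5.79), control day 1 (5.92), exposed day 3 (6.06) and exposed day 1 (6.24) to exposed day 28 (6.92). The step from exposed day 1 to exposed day 28 was 0.67 ± 0.34 (SE; limma adjusted p = 0.323), and from exposed day 3 it was 0.85 ± 0.37 (adjusted p = 0.239). Neighbours lower in that order lay closer together than the SD of the exposed groups. For miR-146a the order was exposed day 1 (8.19), control day 28 (8.20), exposed day 3 (8.24), control day 1 (8.25), control day 3 (8.31) and exposed day 28 (8.68). Its step from exposed day 1 to day 28 was 0.49 ± 0.18 (adjusted p = 0.155) and from day 3 it was 0.45 ± 0.20 (adjusted p = 0.246). From day 1 to day 3 the exposed levels differed by 0.046 for miR-146a and -0.18 for miR-146b (adjusted p = 0.978 for both). The fit called 0% between exposed days 28 and 1 and between days 3 and 1. Before adjustment, at 0.05, those had 1.16% and 0.581% higher, and 14.5% and 1.16% lower. Between exposed days 28 and 3 it called 1.74%, which were miR-335-5p, miR-449a and miR-542-5p; before adjustment 2.33% were higher and 15.7% lower at 0.05.

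Arrays on 1 slide share hybridisation and scan, so exposed and control lungs of the same day were also set against each other within slides. At day 28 miR-146b was higher in the exposed lung in 4 of 5 pairs, by 2.25, 2.16, 1.23 and 0.47, and lower by -0.48 in the pair that holds replicate 12. At day 1 it was higher in 5 of 6 pairs (range -0.39 to 1.01) and at day 3 in 3 of 4 (range -0.78 to 0.996). In both the pair on slide 1 was the one that was lower. For miR-146a the exposed lung was higher in 4 of 5 pairs at day 28 (range -0.29 to 1.19), in 2 of 6 at day 1 (-0.39 to 0.32) and in 2 of 4 at day 3 (-0.38 to 0.26).

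Unequal change of the 2 members was measured as miR-146b minus miR-146a within each array, which cancels the array's scaling. At day 28 this log2 ratio was -1.12 (replicate 8), -1.30 (replicate 23), -1.87 (replicate 30), -2.11 (replicate 20) and -2.43 (replicate 12) in exposed lungs, and at most -2.18 in controls, so that 4 of 5 lay above every control. The means were -1.77 ± 0.55 (SD, n = 5) and -2.42 ± 0.17 (n = 6), a difference of 0.66 (exact permutation test, two-sided, p = 0.0173; adjusted over the 3 days 0.0519). At day 1 the difference was 0.39, with 3 of 6 above every control (exact p = 0.0541, adjusted 0.0812), and at day 3 it was 0.35, with 3 of 4 above (exact p = 0.219, adjusted 0.219). In the authors' series table the differences were 0.073, 0.023 and 0.033 at days 28, 1 and 3 (adjusted exact p = 0.874 for each). With normexp background correction the difference was -0.021 at day 1 (adjusted exact p = 0.872) and 0.55 at day 28 (adjusted exact p = 0.0260). In the background-subtracted scanner signals of the main fit the differences were larger than in the authors' series table, though no day passed after adjustment. Without slide 1 the differences in the scanner signals were 0.50 and 0.61 at days 1 and 3 (adjusted exact p = 0.0357 for both). Slide 1 holds no array of day 28, so the value and exact p of day 28 were the same without it. Without exposed day 28 replicate 12 the difference of day 28 was 0.82 (adjusted exact p = 0.0286). With each array left out in turn it was as low as 0.49, and the highest adjusted exact p was 0.0812.

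From lung to lung the 2 members followed each other closely in the exposed groups. Over the 15 exposed arrays the level of miR-146b correlated with that of miR-146a at r = 0.93 (Spearman rho = 0.88; permutation p = 1e-05 for both, the smallest that 100000 resamples can give; adjusted over 7 relations 2.33e-05 and 7e-05). Without the 2 exposed arrays farthest from the median of miR-146a it was r = 0.84 (n = 13, adjusted permutation p = 0.00049). Over the 18 control arrays r was 0.24 (rho = 0.22; permutation p = 0.333 and 0.369, adjusted 0.333 and 0.389), over a narrower range of levels, and 0.27 without the 2 farthest. Over all 33 arrays r was 0.83 and rho 0.58 (permutation p = 1e-05 and 0.00048, adjusted 2.33e-05 and 0.00112), 0.62 without exposed day 28 replicates 23 and 8, and 0.84 after the group means were removed. The difference between exposed and control correlations was not tested. As 20 of 22 bases are shared, how far each probe also binds the other member was not tested.

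**Figure D4:**
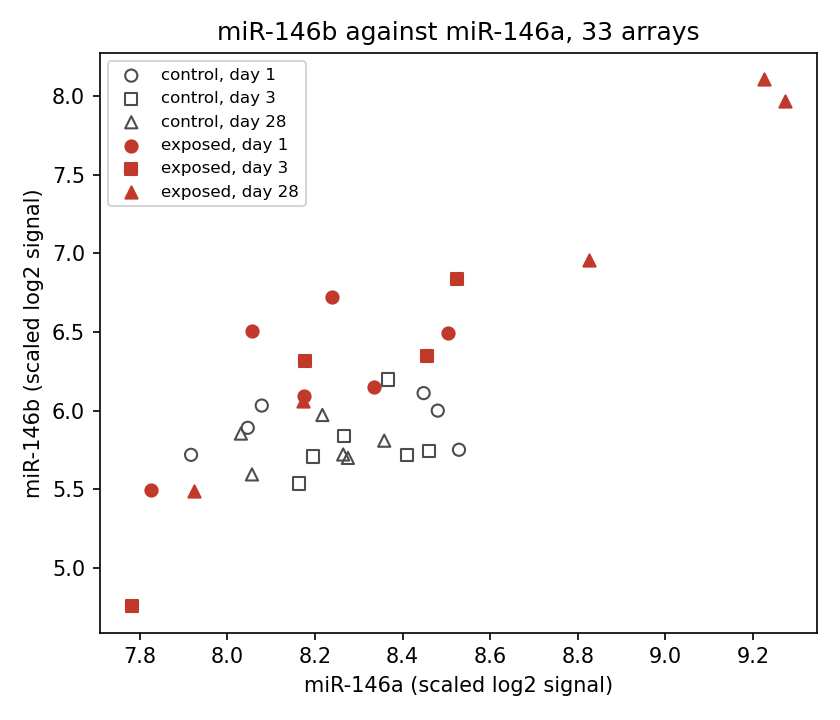
Level of miR-146b against that of miR-146a on 33 arrays (scaled log2 signal), open symbols for controls and filled for exposed lungs, shaped by day. Controls form a compact cloud (r = 0.24, n = 18), and exposed lungs run along a line from replicate 4 of day 3 to replicates 8 and 23 of day 28 (r = 0.93, n = 15).

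Among the 92 miRNAs other than the member itself and its relative that were above background on all arrays, the one with the pattern most like both members over 33 arrays was miR-21, an abundant miRNA of injured and inflamed tissue. With miR-146b its r was 0.83 over all arrays, 0.92 in exposed and -0.096 in control arrays, and with miR-146a it was 0.61, 0.83 and -0.21. The median r of all 92 was -0.18 with miR-146b and -0.14 with miR-146a. With miR-146b there followed miR-141 (0.57), an epithelial miRNA of the miR-200 family, then miR-125a-5p (0.47), miR-142-3p (0.45), a miRNA of blood cells, and miR-709 (0.45). With miR-146a there followed miR-141 (0.54), miR-16 (0.52), miR-142-3p (0.50) and miR-181a (0.50). If the relative is counted, miR-146b ranked 1 of 93 for miR-146a and miR-146a ranked 2 of 93 for miR-146b, behind miR-21. These are descriptions over arrays that share slides, scaling and groups. miR-21 itself changed by 0.85 ± 0.23 (SE) at day 28, which did not pass (limma adjusted p = 0.157).

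**Figure D5:**
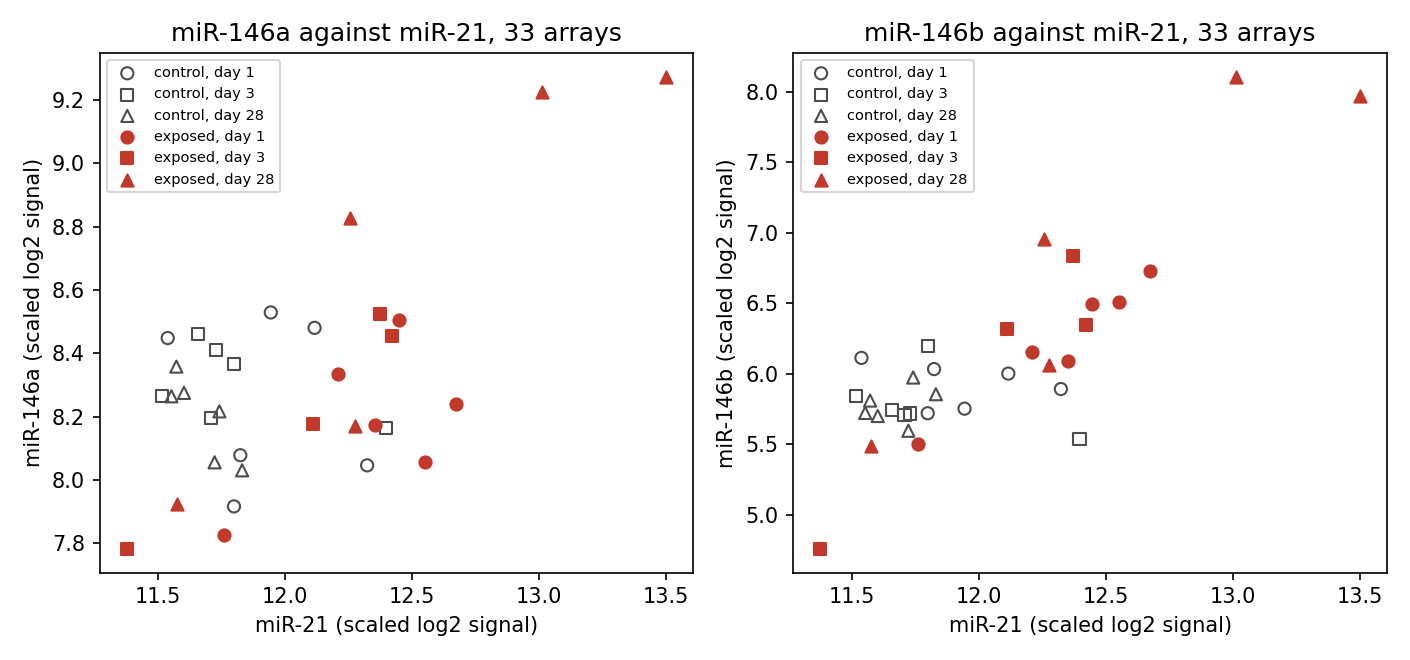
Level of miR-146a (left) and miR-146b (right) against that of miR-21 on 33 arrays (scaled log2 signal), open symbols for controls and filled for exposed lungs, shaped by day. The exposed lungs spread along a line (r = 0.83 and 0.92), and the controls do not (r = -0.21 and -0.096).

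The other miRNAs that Toll-like receptor or NF-kB signalling is known to raise were looked at from a list of 8, all on the array. Of these 2 were above background often enough to be tested, miR-21 and miR-155, a miRNA of activated macrophages and lymphocytes. The other 6 (miR-132, miR-212, miR-9, miR-9*, miR-147 and miR-187) were above background on 0 of 33 arrays. Both tested miRNAs were higher in exposed lungs at days 1 and 28 and 1 of them at day 3, none past the test, with medians of 0.66, 0.038 and 0.80 against -0.097, -0.036 and -0.034 over all miRNAs. The probes of miR-155 read above background in 0 of 6 control lungs and 4 of 6 exposed lungs at day 1, in 1 of 6 and 0 of 4 at day 3, and in 4 of 6 and 4 of 5 at day 28. Control arrays were dimmer before scaling at day 1 (median 75th percentile 365 against 666 units) and brighter at day 28 (985 against 481). The part of this brightness in the counts was not tested. At day 28 miR-155 differed by 0.75 ± 0.31 (SE; limma adjusted p = 0.570), and exposed replicate 12, the lowest lung for both miR-146 members, was the exposed lung of that day in which miR-155 was not above background. Of 3 miRNAs known to be lowered by such signalling, let-7i, miR-98 and miR-125b-5p, all 3 had values below 0 at each day and none passed, with medians of -0.073, -0.079 and -0.078, close to those of all miRNAs.

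Markers of cell types that could change in number are given beside the members. The myeloid list (miR-223, miR-142-3p and miR-142-5p, all tested, none past the test) had a summed signal of 995 to 2094 in exposed lungs of day 28 and 1051 to 1552 in controls. Exposed replicates 8 and 23, highest for miR-146b, had sums of 1716 and 1806, replicate 20 had the highest sum of 2094 with a miR-146b level of 6.06, and replicate 30 had 1067 with a level of 6.96. At day 1 the myeloid sums were 866 to 2298 against 572 to 1812, and at day 3 they were 968 to 1517 against 919 to 1593. Median changes of this list were 0.51, 0.016 and 0.15 at days 1, 3 and 28. The sum weighs the member with the highest signal most, which was miR-142-3p, given above as a miRNA of blood cells. It is thus no measure of myeloid cells alone. By itself miR-223 differed by 0.82 ± 0.21, 0.20 ± 0.24 and 0.12 ± 0.22 (SE) at days 1, 3 and 28.

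The lymphoid list had 3 of 4 members tested and none past the test; miR-150 was above background on 2 of 33 arrays. Its summed signal at day 28 was 105 to 169 in exposed lungs and 116 to 159 in controls. At day 1 it was 117 to 164 against 129 to 150.1, and at day 3 it was 126 to 154 against 120.3 to 188. The 5 epithelial miRNAs summed to 1050.0 to 1483 at day 28 in exposed lungs and to 1101 to 1401 in controls, to 1085 to 1549 against 1116 to 1484 at day 1, and to 1152 to 1443 against 1199 to 1443 at day 3. The 2 endothelial miRNAs summed to 4203 to 6152 and 5502 to 6682 at day 28, to 5518 to 6711 and 5291 to 8049 at day 1, and to 6114 to 6816 and 5347 to 7626 at day 3, again exposed before control. No member of these lists passed the test at any day. The list of other tissues (miR-122 of liver, miR-124 of brain, and miR-1, miR-133a and miR-133b of heart and skeletal muscle) had a median change of 0.54, -1.33 and -1.29 at days 1, 3 and 28 over its 4 tested members, none past the test. Its summed signal at day 28 was 37.7 to 223 in exposed lungs and 55.7 to 268 in controls. At day 1 it was 49.5 to 1055 against 38.3 to 1022, and at day 3 it was 53.3 to 119 against 90.8 to 479. The part of any of these lists in the miR-146 values was not tested.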

How the data were processed

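Agilent mouse miRNA arrays were read as deposited by the authors, from scanner files with linear spot intensity, background-subtracted by Feature Extraction 10.7.3.1, per the file headers. A further table by the authors of log2 values, with scaling unknown here (column medians 5.41 to 5.43), was used only as an alternative. Its r was 0.991 to 1.00 with the log2 median spot signal before background subtraction, averaged over all spots of a miRNA. That r was not taken with the background-subtracted signal used for the levels. Control spots and flagged spots (2.32%) were left out. Spots of a probe were averaged, each array was scaled to an equal 75th percentile over 156 probes above background on all 33 arrays, values under 1 were raised to 1 before log2, and a miRNA was its probe with the highest mean. A probe was above background where more than 0.5 of its unflagged spots were. The 172 miRNAs above background on at least 4 arrays of a group were fitted with limma 3.58.1 in R 4.3.3 as 6 group means, with lmFit and eBayes with trend, two-sided, adjusted by Benjamini-Hochberg within a contrast at 0.05. Array number limits the precision. Single values were tested by exact permutation over arrays, in Python 3.11.15 with scipy 1.17.1. The fit was tested on simulated data. Groups came from the sample labels. Alternatives were other background corrections, scalings, floors and filters, probe rules, slide, scan day, array weights, and each array left out. The planned normexp correction used the median signal with an offset of 50, as the mean signal is not a column of these files. The miRNAs named are both members, the 5 most like each by Pearson r, and list members. Members and lists were chosen with earlier results of these data known.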

Additional observations from a re-analysis of the deposited data

Results flagged for a closer look

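The dimmer probe of miR-146b had no test of its own and entered only settings that combine probes, such as the mean over probes. It was above background in 3 exposed lungs of day 28 and in 0 of the 18 vehicle lungs, a signal outside the main measurement.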

How the results depend on the processing

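No paired analysis was possible because, for a pairing by replicate number, each number belongs to a single array of the series. Pairing by slide was done instead, as pairs within slides and as a block. The day 28 difference of miR-146b kept its sign in 17 of 17 other settings and with each array left out. Under some settings the median of all 172 miRNAs moved by over 0.1: at day 1 from -0.097 to -0.36 with normexp, 0.058 with the total gene signal, 0.56 with no scaling and 0.087 with the percentile over all probes, and at day 28 from -0.034 to 0.28 with normexp, -0.65 with no scaling and -0.28 with that percentile. Normexp adds its offset before scaling, and no scaling carries the brightness of the arrays; for other changes listed here the cause was not tested. All values are log2 differences, in the order miR-146a then miR-146b where both are given.

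Exposed minus control at day 1 turned for miR-146a to 0.083 (series table), 0.60 (no scaling) and 0.12 (percentile over all probes), and for miR-146b to -0.14 (normexp). At day 3 miR-146a turned to 0.065 (series table), 0.0090 (slide as a fixed block), 0.0015 (scan day) and 0.046 (without slide 1). At day 28 it turned to -0.13 with no scaling, and miR-146b passed with normexp (1.02). The mean of the 3 days for miR-146b passed with slide fixed (0.63), slide random (0.61), scan day (0.62) and without slide 1 (0.76). The change of days 3 and 1 turned to 0.069 and 0.096 (slide fixed), 0.062 and 0.076 (scan day), 0.075 and 0.19 (without slide 1), 0.052 and 0.30 (normexp), 0.018 and 0.0029 (total gene signal) and 0.038 and 0.040 (slide random). That of days 28 and 1 passed with normexp (0.60 and 1.17), a setting that called 97 of the 172 miRNAs there. The change of days 28 and 1 turned with no scaling (-0.73 and -0.46).

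Between control days 28 and 1 miR-146b passed at -0.61 with normexp, which called 127 of the 172 miRNAs there. With no scaling both members passed (limma adjusted p = 0.0093 and 0.034), and 142 of the 172 were called. The values turned to 0.11 (series table, miR-146a), 1.14 and 1.05 (no scaling), 0.38 and 0.29 (percentile over all probes), 0.12 and 0.030 (quantile) and 0.16 and 0.32 (mean over probes). Between control days 28 and 3 they turned to 0.076 and 0.037 (series table), 0.41 and 0.50 (no scaling), 0.041 and 0.14 (percentile over all probes), 0.032 (total gene signal, miR-146b), 0.037 and 0.075 (quantile) and 0.0080 and 0.11 (mean over probes). Between control days 3 and 1 they turned for miR-146b to 0.15 (percentile over all probes), 0.54 (no scaling) and 0.21 (mean over probes), and for miR-146a to -0.0018 (normexp). Between exposed days 3 and 1 they turned to -0.019 (no scaling, miR-146a) and 0.11 (without slide 1, miR-146b). The ratio of miR-146b to miR-146a turned to -0.021 at day 1 with normexp. It passed at day 28 with normexp (0.55). It also passed there with the mean over probes (0.85), which takes in the dimmer miR-146b probe, above background on 3 of 33 arrays. It passed without slide 1 at days 1, 3 and 28 (0.50, 0.61 and 0.66), at day 28 only through the adjustment over the 3 days. In the series table it was 0.023, 0.033 and 0.073 at days 1, 3 and 28 (adjusted exact p = 0.874). The mean of the 3 days for miR-146b was 0.24 with the series table and 0.35 with normexp.

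The number of miRNAs called at day 1, 0 in the fit, was 3 (percentile over all probes), 6 (no scaling), 2 (without slide 1), 3 (total gene signal), 2 (slide random), 4 (quantile), 2 (mean over probes), 1 (only miRNAs above background on all arrays) and 3 (no filter). At day 3 it was 1 without slide 1, and at day 28 it was 1 without slide 1, with normexp, quantile, no filter, the floor of 10 and array weights. For the mean of the 3 days, 1 in the fit, it was 0 (series table, percentile over all probes, only miRNAs above background on all arrays, floor of 10), 14 (slide fixed), 10 (scan day), 6 (without slide 1), 2 (total gene signal, quantile, mean over probes) and 4 (slide random). Counts for the change between days ranged from 0 to 1, 0 to 119 and 0 to 0 for days 3 and 1, 28 and 1, and 28 and 3; between control days in that order from 0 to 0, 0 to 142 and 0 to 6, against 0, 12 and 1 in the fit; and between exposed days from 0 to 0, 0 to 9 and 0 to 3, against 0, 0 and 3.

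With each array left out in turn, exposed minus control ranged for miR-146a from -0.13 to 0.012 (day 1), -0.17 to 0.076 (day 3) and 0.34 to 0.67 (day 28), and for miR-146b from 0.23 to 0.48 (day 1), 0.015 to 0.71 (day 3), 0.84 to 1.50 (day 28) and 0.48 to 0.73 (mean of the 3 days). The change of days 3 and 1 ranged from -0.11 to 0.14 and from -0.31 to 0.38. Control differences ranged for miR-146a from -0.0059 to 0.12 (days 3 and 1) and -0.12 to 0.0061 (days 28 and 1), and for miR-146b from -0.067 to 0.066 (days 28 and 3). Exposed days 3 and 1 differed by -0.051 to 0.20 and by -0.44 to 0.26. Counts of calls ranged from 0 to 2 (day 1), 0 to 4 (day 28) and 0 to 5 (mean of the 3 days). The ratio ranged from 0.30 to 0.46 (day 1), 0.19 to 0.63 (day 3) and 0.49 to 0.82 (day 28). It passed at day 1 without exposed day 1 replicate 3 (0.46) or control day 1 replicate 24 (0.44), at day 3 without exposed day 3 replicate 4 (0.63), and at day 28 without exposed day 28 replicate 12 (0.82), control day 28 replicate 6 (0.71) or control day 28 replicate 10 (0.69). It also passed at day 28 without any of 3 arrays of other days, where only the adjustment over the 3 days changed. Processed signals of the brighter miR-146b probe reached down to 16.1 units in control lungs of day 1, so its levels there are the least precise.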
